A study of Homo sapiens with 20 samples.

Results

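Glucose enters cells and lactate leaves them through membrane carriers, and 5 genes of this traffic were followed here in a series of HIF1A chromatin binding profiles. The 5 genes are SLC2A1 and SLC2A3, which encode the glucose transporters GLUT1 and GLUT3, SLC16A1 and SLC16A3, which encode the monocarboxylate transporters MCT1 and MCT4, and BSG, which encodes basigin, the membrane glycoprotein that carries MCT1 and MCT4 to the cell surface. Members were chosen by gene name, and a HIF1A peak was counted for a gene when its centre lay between 20 kb upstream of the start and 10 kb past the end of the gene record. Of the 20162 protein-coding genes of the annotation these 5 were described, and of 26484 peaks in the 8 peak lists of the series 43 fell into their windows.

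Oxygen controls the stability of HIF1A, a transcription factor subunit that is degraded in its presence and accumulates in hypoxia. It binds DNA at hypoxia response elements with the core RCGTG (R is A or G) and is known for switching on glycolytic genes. A cell that runs glycolysis at a high rate takes up more glucose and exports lactate with a proton, and GLUT1, GLUT3 and MCT4 are textbook products of hypoxia-inducible genes in tumor cells.

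The series consisted of 20 samples from the colorectal carcinoma lines HCT116 and RKO and the lung cancer lines A549 and H460, each cultured for 24 h under normoxia or under hypoxia (1% O2). For every line and condition there were 2 ChIP-seq replicates with an antibody against HIF1A, and each line had 1 input library of genomic DNA. The labels name no genetic change made to the cells, and each group is 1 established tumor line, so the values describe these lines and not the normal tissue. The 2 replicates of a group had been merged before peaks were called, so each value belongs to 1 merged library and has no replicate error, and a peak list cannot be checked for marker gene expression.

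Signal is given as the normalized tag count, which counts the sequenced tags of a peak per 10 M tags of its merged library (1 M is 1000000), here written as tags per 10 M. The merged libraries held 41.2 M to 81.5 M tags and the lists 287 to 9171 peaks. The calling threshold on the fold over input differed by line (6 for RKO, 7 for HCT116, 13 for A549 and 14 for H460), and the peak width was set per list between 118 bp and 190 bp, so a call in one line and none in another is not by itself a difference in binding. Intervals in parentheses after a tag count are exact 95% Poisson intervals, which cover counting error only.

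The sequences of the region called in most hypoxia lists for each gene, read from GRCh37 on the strand of the gene and written 5′ to 3′, carry the core motif in capitals as it reads on that strand. RCGTG on the opposite strand appears as CACGT or CACGC. They are shown because, except at SLC16A1, the peak centres of the different lines converge on these short stretches. The SLC16A1 region was called in RKO only. The SLC16A3 stretch lies at chr17:80188915-80189064 (plus strand), the SLC2A3 stretch at chr12:8123345-8123494 (minus strand), the SLC2A1 stretch at chr1:43423907-43424056 (minus strand) and the BSG stretch at chr19:556064-556213 (plus strand). For SLC16A1, whose RKO peak sits on the first exon, a stretch of 29 bases at chr1:113498785-113498813 (minus strand) is given.
SLC16A3 +2.1 kb: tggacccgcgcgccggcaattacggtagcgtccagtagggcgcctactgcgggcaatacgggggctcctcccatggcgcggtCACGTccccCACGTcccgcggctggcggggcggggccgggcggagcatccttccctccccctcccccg
SLC2A3 -34.6 kb: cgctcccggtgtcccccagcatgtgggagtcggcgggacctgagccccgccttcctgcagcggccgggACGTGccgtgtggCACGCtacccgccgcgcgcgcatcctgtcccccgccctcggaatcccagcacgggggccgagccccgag
SLC2A1 +0.56 kb: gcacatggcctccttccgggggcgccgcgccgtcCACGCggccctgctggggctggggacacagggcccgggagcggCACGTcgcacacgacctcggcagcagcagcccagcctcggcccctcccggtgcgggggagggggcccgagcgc
BSG -16.5 kb: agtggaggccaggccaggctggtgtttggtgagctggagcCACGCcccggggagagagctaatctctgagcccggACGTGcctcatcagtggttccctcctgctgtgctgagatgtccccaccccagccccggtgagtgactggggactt
SLC16A1 at the start: tggtgagctgcgACGTGactggctagctg

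The 4 longer stretches each hold 2 copies of the core. The SLC16A1 region also holds 2 copies, with 11 bases between them, of which the shorter stretch shows the ACGTG. In SLC16A3 both copies are ACGTG on the opposite strand with 4 bases between them. In SLC2A3 the copies face each other on opposite strands with 8 bases between them, whereas in SLC2A1 both lie on the opposite strand 38 bases apart. Sites are named by gene and by the distance of the peak centre from the start of the MANE Select transcript (the reference transcript agreed by the annotation groups), counted in the direction of transcription.

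The transporter genes were first compared between oxygen conditions by their number of HIF1A peaks. In hypoxia the 5 windows held 6 peaks in RKO, 7 in A549, 8 in HCT116 and 14 in H460, and in normoxia 0, 3, 1 and 4. Every line had more peaks in hypoxia, and the lowest hypoxia count exceeded the highest normoxia count. The mean was 8.75 peaks in hypoxia and 2 in normoxia, a difference of 6.75 ± 2.5 (SD, n = 4 lines) that was positive in 4 of 4 lines, with an exact two-sided sign-flip permutation p of 0.125, the smallest that 4 lines allow. The whole list also grew in each line. It went from 287 to 3996 peaks in HCT116 and from 2092 to 9171 in RKO. In A549 it went from 526 to 5408 and in H460 from 1127 to 3877. As parts of their lists, the windows held 1 of 287 peaks in normoxia and 8 of 3996 in hypoxia in HCT116. The counts were 3 of 526 and 7 of 5408 in A549, 4 of 1127 and 14 of 3877 in H460, and 0 of 2092 and 6 of 9171 in RKO. The part in the windows was thus lower in hypoxia in HCT116 and A549, about level in H460 and higher in RKO. Whether the windows rose more than the whole lists was not tested.

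Counted by gene, SLC2A1, SLC2A3 and SLC16A3 had a hypoxia peak in HCT116, and SLC2A1, SLC16A1 and SLC16A3 in RKO. In A549 all but SLC16A1 were called (4 genes), and in H460 all 5. The share of all protein-coding gene windows with a hypoxia peak was 20.3% for H460, 22% for HCT116, 23.8% for A549 and 31.1% for RKO, so the 5, 3, 4 and 3 of 5 transporter genes stood above the background of each list. In normoxia SLC2A1 was called in HCT116, no gene in RKO, and SLC2A3 and SLC16A3 in A549 and in H460, beside a background of 1.5%, 7.61%, 3.14% and 4.23%. SLC2A1 and SLC16A3 were called in hypoxia in all 4 lines, which held for 3.87% of protein-coding genes. SLC2A3 was called in exactly 3 lines, as were 7.47% of protein-coding genes. SLC16A1 and BSG were called in exactly 2, as were 15.0%. Every gene thus had at least 1 hypoxia peak in at least 2 lines. These shares are descriptions, since the genes were chosen for what is known of them and with earlier results of these data known.

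Window length moves with such counts. The windows ran from 42.2 kb for BSG to 129.8 kb for SLC2A3, against a median of 57.2 kb (quartiles 39.5 kb and 101 kb) over all protein-coding genes. When a call required a peak within 2500 bp of any annotated transcript start of the gene, 2 genes were called in HCT116 (SLC2A1 and SLC16A3), 3 in RKO (both of these and SLC16A1), 2 in A549 (SLC2A1 and SLC16A3) and 5 in H460, beside 11.6%, 12.3%, 9.76% and 11.3% of protein-coding genes. By position, 16 of the 35 hypoxia peaks lay within 2500 bp of an annotated start of their own gene, and 16 were nearer to the start of another protein-coding or lncRNA gene than to any start of the transporter gene. The 35 peaks fell on 24 sites, of which 7 were called in at least 2 lines and 17 in 1 line (9 of these in H460, 4 in HCT116, 3 in RKO and 1 in A549). These position and site counts describe the 5 windows only, since no such shares over all hypoxia peaks stand beside them.

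**Figure D1:**
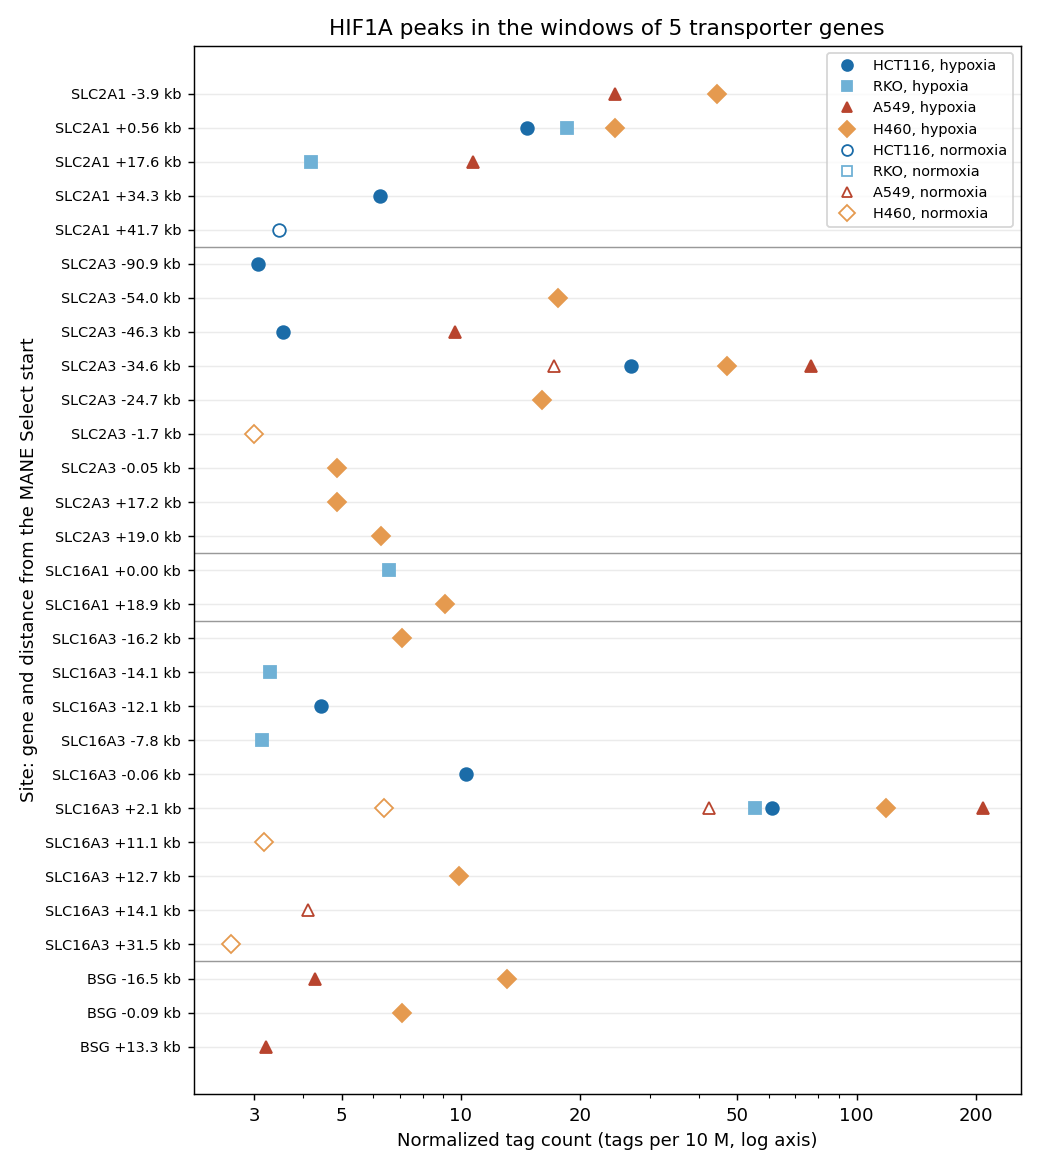
Normalized tag count (tags per 10 M, log axis) of every HIF1A peak in the 5 gene windows, 1 row per site, with hypoxia filled and normoxia open and 1 color and shape per line; a line without a symbol had no peak called there, and RKO had none in normoxia. The SLC16A3 +2.1 kb row holds all 4 lines and the highest values (55.5 to 208.5 in hypoxia), followed by SLC2A3 -34.6 kb (26.9 to 76.9).

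Glucose uptake begins with GLUT1, the widely expressed basal glucose carrier. SLC2A1 (ENSG00000117394) is on chromosome 1, from 43391024 to 43424564 on the minus strand, and its window held 8 hypoxia peaks at 4 sites. In the first intron, 0.56 kb past the start, HIF1A signal was 24.5 tags per 10 M in H460 (20.3 to 29.2), 18.5 in RKO (15.4 to 22.1) and 14.7 in HCT116 (12.2 to 17.6), with no call in A549. The intervals of HCT116 and RKO overlap, as do those of RKO and H460, and HCT116 and H460 are separated by more than counting error, in an order that reverses when values are taken relative to list medians. Among all peaks of their lists they ranked 326 (of 3877), 58 (of 9171) and 150 (of 3996).

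Another SLC2A1 site lay 3.9 kb upstream, inside the divergent lncRNA gene SLC2A1-DT, at chr1:43428403-43428555, and 941 to 950 bp from the start of a further lncRNA gene. It had 24.5 tags per 10 M in A549 and 44.3 in H460 and was called in neither colorectal line. A549 therefore had its strongest SLC2A1 peak upstream of the gene and none in the first intron, whereas H460 had both. The intron 2 site at 17.6 kb had 4.19 tags per 10 M in RKO and 10.7 in A549. HCT116 alone had a peak of 6.26 at 34.3 kb, which is 815 bp past the end of the gene and 78 bp from the start of an unnamed lncRNA gene. In normoxia the window held a single peak, of 3.47 tags per 10 M in HCT116, 8215 bp past the gene end and at none of the hypoxia sites.

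GLUT3, the product of SLC2A3, is a high-affinity glucose carrier best known from neurons. SLC2A3 (ENSG00000059804) is on chromosome 12, from 8071826 to 8171603 on the minus strand. This gene record extends 82820 bp upstream of the MANE Select start because of long alternative transcripts, and the sites named as upstream here lie in introns of those transcripts, except the site 90.9 kb upstream, which is outside the record. Its window held 11 hypoxia peaks at 8 sites, the most peaks of the 5 genes. The leading site, 34.6 kb upstream of the MANE Select start and in intron 2 of the longest transcript, had 76.9 tags per 10 M in A549 (69.1 to 85.3), 47.1 in H460 (41.3 to 53.6) and 26.9 in HCT116 (23.4 to 30.7). None of these intervals overlap, and the peaks ranked 18, 86 and 46 in their lists. This site is also inside an unnamed lncRNA gene (ENSG00000288043), whose start is 16594 to 16615 bp away and thus nearer than any start of SLC2A3. RKO, which had the longest hypoxia list, had no peak anywhere in the SLC2A3 window.

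The same SLC2A3 site was called in normoxia in A549, with 17.2 tags per 10 M (13.4 to 21.7), rank 35 of 526. The hypoxia signal was 4.47 times the normoxia signal (95% interval 3.45 to 5.84), a log2 ratio of 2.16. An exact binomial test of the tags of the shared peak, conditional on their sum and with the library totals as expectation, gave an adjusted p of 1.0e-38. Its p speaks of the 2 merged libraries only, not of the conditions, and the adjustment ran over the 175 peaks that the 2 A549 lists share, of which 73.1% had more tags in hypoxia at an adjusted p under 0.05. A rise was thus the usual outcome among shared A549 peaks.

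The other SLC2A3 sites were weaker. H460 alone had peaks of 16 tags per 10 M at 24.7 kb upstream, 17.6 at 54.0 kb upstream, 4.85 at the MANE Select start (47 bp upstream of it), and 4.85 and 6.27 at 17.2 kb and 19.0 kb, just past the gene end. A site 46.3 kb upstream had 3.56 tags per 10 M in HCT116 and 9.66 in A549. Its placement is uncertain, because 200 bp around the peak centre match the neighboring paralog locus SLC2A14 at 98.0% and 98.5% identity. The peak at 17.2 kb has a weaker match, 85.6% over 132 bp, and the leading site has none. HCT116 had a further peak of 3.07 at 90.9 kb upstream, 5604 bp from the start of FOXJ2 and nearer to it than to SLC2A3. In normoxia H460 had 1 peak of 3 tags per 10 M, 1.7 kb upstream and without RCGTG.

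**Figure D2:**
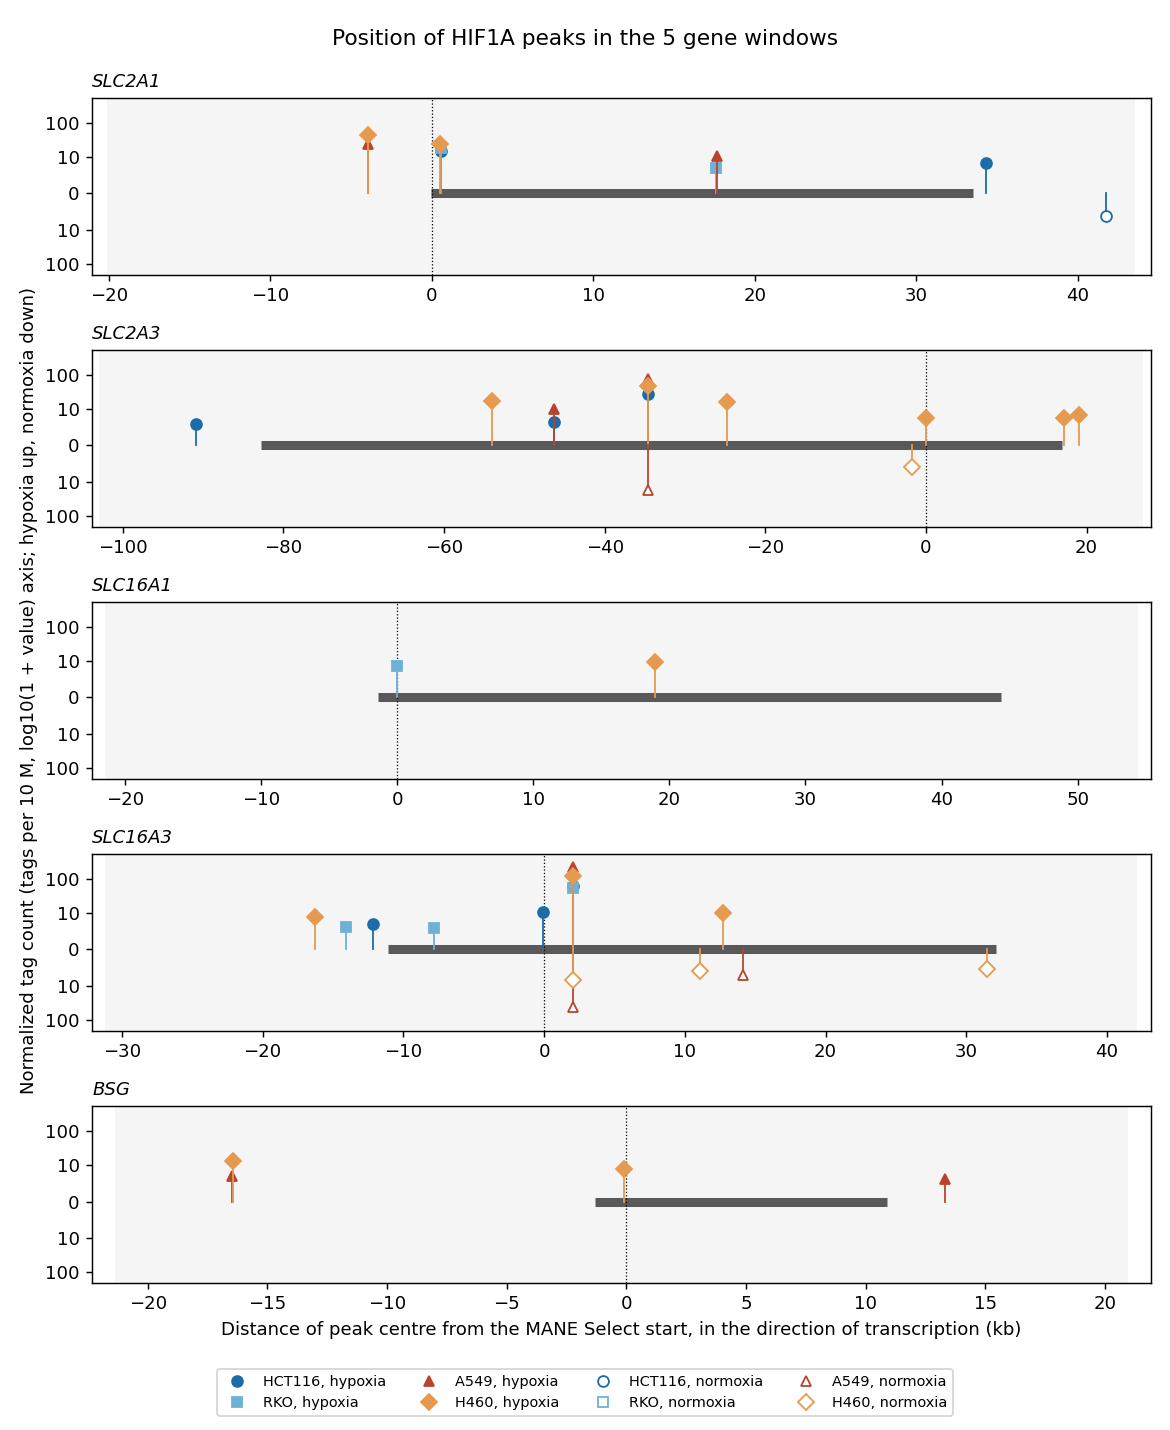
Position of each HIF1A peak relative to the MANE Select start (x axis, kb, in the direction of transcription) and its normalized tag count (tags per 10 M, on a log10(1 + value) axis, hypoxia upward and normoxia downward) for the 5 genes; gray bars are gene records and shaded areas the windows. The strongest SLC16A3 peaks stack 2.1 kb past the start, whereas those of SLC2A3 lie 34.6 kb before it.

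MCT4, the product of SLC16A3, exports lactate from glycolytic cells. SLC16A3 (ENSG00000141526) is on chromosome 17, from 80175810 to 80219005 on the plus strand, and its window held the strongest peaks of the 5 genes. At 2.1 kb, in intron 1 of the MANE Select transcript and within an exon of a retained-intron transcript, HIF1A signal in hypoxia was 208.5 tags per 10 M in A549 (195.6 to 222.0), 118.7 in H460 (109.3 to 128.7), 61.1 in HCT116 (55.8 to 66.7) and 55.5 in RKO (50.0 to 61.4). As deposited A549 stood highest and H460 next, each beyond counting error, while the intervals of HCT116 and RKO overlap. A549 was also highest under the other scalings of the tag count given below, but not by fold over input. The peak was the strongest of 5408 in A549, and ranked 3 in H460, 7 in RKO and 10 in HCT116. It was the 1 member site among the 232 regions called in all 4 hypoxia lists, out of 19628 joined regions.

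The SLC16A3 intron site was already called in normoxia in both lung cancer lines, with 42.4 tags per 10 M in A549 (36.4 to 49.2), rank 7 of 526, and 6.38 in H460 (4.42 to 8.92), rank 10 of 1127. It was not called in normoxia in HCT116 or RKO. Given the input tags found at the site, a normoxia peak would have needed 14.3 tags per 10 M in HCT116 and 3.19 in RKO to pass the filter on fold over input. The hypoxia signal was 4.26 and 17.4 times that limit, which leaves out the filter on local fold. In the same exact binomial test of merged libraries, the hypoxia signal was 4.91 times the normoxia signal in A549 (4.18 to 5.81, log2 2.30, adjusted p 6.6e-112). For H460 it was 18.6 times (13.2 to 27.1, log2 4.22, adjusted p 6.7e-139). Per bp of peak width the H460 ratio was 15.0, since its hypoxia peaks are wider than its normoxia peaks. In H460, 82.2% of the 45 shared peaks had more tags in hypoxia at an adjusted p under 0.05. The intervals of the 2 ratios do not overlap, but the difference between the lines was not tested.

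Input differed at this site. The scaled input tags were 14 in A549, 0.5 in H460, 7 in HCT116 and 2 in RKO, where 0.5 is the value written when no input tag was found. The fold over input was 62.2, 698.74, 29.8 and 104.4 in the same order of lines, which placed RKO above A549. The fold over the surrounding 10000 bp, which does not use input, was 72.5, 65.4, 32.5 and 45.3. Like the deposited signal, it placed both lung cancer lines above both colorectal lines. The part of the input in the order of the lines was not tested. The labels of the RKO and A549 inputs are at odds: title and cell line give 1 line and the description the other. The source name is HCT116 for every input. The input values and limits therefore hold only if each list was called against its own input.

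The remaining 6 SLC16A3 hypoxia sites were each called in 1 line. HCT116 had 10.3 tags per 10 M at 0.06 kb upstream of the MANE Select start and 4.42 at 12.1 kb upstream. RKO had 3.29 at 14.1 kb and 3.14 at 7.8 kb upstream, both without RCGTG in the 200 bp at the peak centre. H460 had 9.91 at 12.7 kb, where the record overlaps CSNK1D, and 7.08 at 16.2 kb upstream, only 85 bp from the start of CCDC57. The 3 further normoxia peaks were 4.12 tags per 10 M in A549 at 14.1 kb and 3.19 and 2.63 in H460 at 11.1 kb and 31.5 kb, and no hypoxia peak overlapped any of them.

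MCT1, the product of SLC16A1, carries lactate in either direction. SLC16A1 (ENSG00000155380) is on chromosome 1, from 113454469 to 113500215 on the minus strand, and its window held 2 hypoxia peaks and none in normoxia. RKO had 6.58 tags per 10 M (4.78 to 8.83) 1 bp from the MANE Select start, on the untranslated first exon. H460 had 9.1 (6.64 to 12.2) in intron 1 at 18.9 kb. The lines shared no SLC16A1 site, and HCT116 and A549 had no SLC16A1 peak.

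BSG (ENSG00000172270), on chromosome 19 from 571277 to 583494 on the plus strand, had 4 hypoxia peaks, all in the lung cancer lines, and none in normoxia. A site 16.5 kb upstream lay outside any gene record, 12098 to 12111 bp from the start of GZMM and 15132 to 15145 bp from the nearest start of BSG. It had 4.29 tags per 10 M in A549 (2.62 to 6.63) and 13.1 in H460 (10.1 to 16.8). H460 had a further 7.08 at 0.09 kb upstream of the start, and A549 had 3.22 at 13.3 kb, 3972 bp from the start of HCN2 and nearer to it than to BSG. HCT116 and RKO had no BSG peak.

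A difference between the conditions could be bounded for few of these peaks. Of the 35 hypoxia peaks 3 were also called in normoxia, and the other 32 were compared with the signal a normoxia peak would have needed at the same number of input tags. The hypoxia signal was between 1.01 and 17.4 times that limit (median 1.62), and above 2 times for 13 peaks. The limit leaves out the local fold of 3 that a peak also had to pass, so a normoxia signal above it could also have gone uncalled. For the other 19 a normoxia signal within 2-fold of the hypoxia signal could have stayed below that limit, so their absence from the normoxia lists does not show a larger change. The 13 peaks were SLC16A3 +2.1 kb in HCT116 and RKO, SLC2A3 -34.6 kb in HCT116 and H460, 5 peaks of SLC2A1 (the first intron in RKO and H460, 3.9 kb upstream in A549 and H460, and intron 2 in A549), both SLC16A1 peaks and both H460 peaks of BSG.

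The next comparison asked whether the order of the lines holds across ways of scaling the signal. At SLC16A3 +2.1 kb A549 was highest as deposited, per kb of peak width (1489 tags per 10 M), relative to the median of its list (53.9 times) and relative to the median of its peaks in regions called in all 4 lists (9.07 times). The lowest line was RKO under the first 3 scalings and H460 under the last, where HCT116, RKO and H460 had 5.18, 5.67 and 4.40 times the median of common peaks. At SLC2A3 -34.6 kb A549 was again highest under all 4 scalings (3.34 times the median of common peaks), and the lowest was HCT116 as deposited and per width but H460 under both median scalings (2.28 and 1.74 times the median of common peaks). At SLC2A1 +0.56 kb H460 was highest as deposited and lowest under both median scalings, in which RKO led (1.89 times the median of common peaks, against 1.25 in HCT116 and 0.907 in H460). The SLC16A3 site thus had 4.40 to 9.07 times the median of common peaks in every line, whereas the SLC2A1 intron site had 0.907 to 1.89 times that median.

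**Figure D3:**
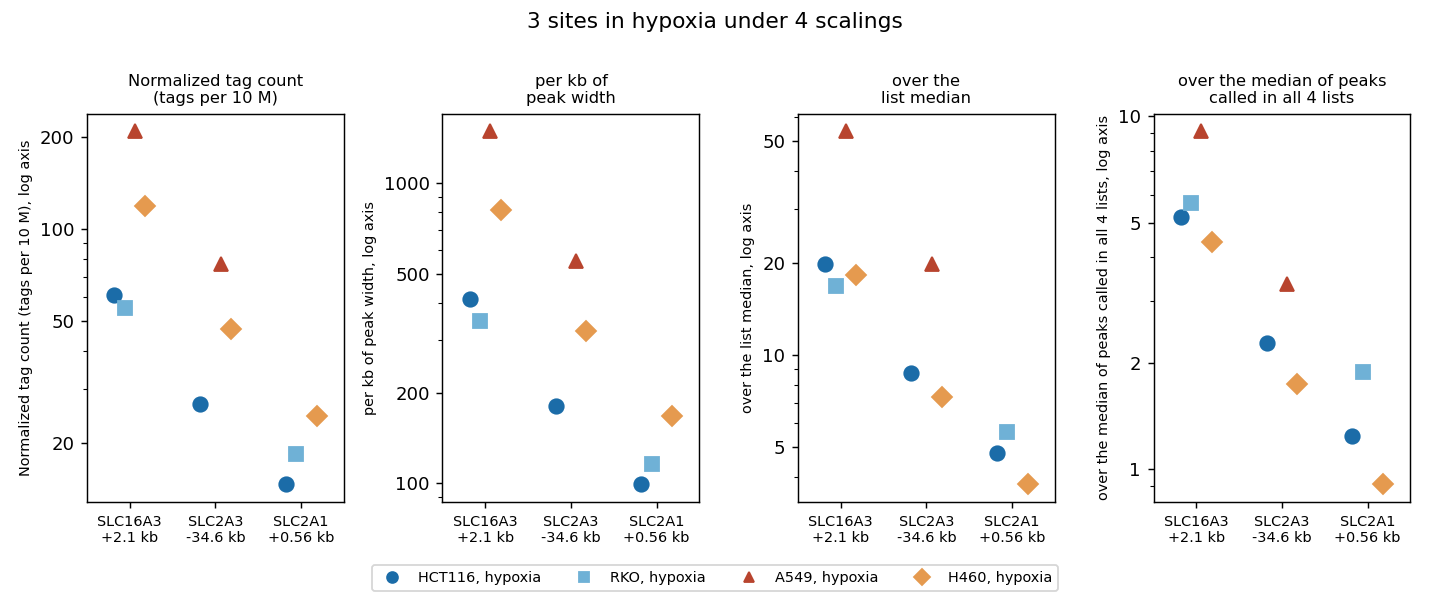
Hypoxia signal (log axes) at the SLC16A3 +2.1 kb, SLC2A3 -34.6 kb and SLC2A1 +0.56 kb sites under 4 scalings, 1 symbol per line and merged library. A549 is highest at SLC16A3 and SLC2A3 in all 4 panels, while H460 moves from highest to lowest at SLC2A1 in the last 2 panels.

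Within their lists, 28 of the 35 hypoxia peaks lay above the list median and 11 in the top 5%. The median over the transporter peaks was 11.5 tags per 10 M in H460, 10.7 in A549, 8.28 in HCT116 and 5.39 in RKO, and the list medians were 6.47, 3.87, 3.07 and 3.29. Summed over the window, SLC16A3 ranked 8, 10, 4 and 7 of all 20162 protein-coding windows in HCT116, RKO, A549 and H460. SLC2A3 ranked 74 in HCT116, 31 in A549 and 32 in H460, and SLC2A1 ranked 172, 127, 229 and 83. SLC16A1 ranked 1735 in RKO and 1935 in H460, and BSG 1847 in A549 and 824 in H460.

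The core motif RCGTG, searched as ACGTG and GCGTG on either strand within 200 bp centred on the peak, was present in 32 of the 35 hypoxia peaks. By line it was in 13 of 14 peaks for H460, 8 of 8 for HCT116, 7 of 7 for A549 and 4 of 6 for RKO, beside 76.9%, 65.2%, 52.4% and 30.5% of all hypoxia peaks in those lists. Stretches of the same size placed 2000 bp from all hypoxia peaks held it in 19.5% to 24.1% of cases. The 3 peaks without it were the RKO peaks upstream of SLC16A3 and the H460 peak past the end of SLC2A3. In normoxia it was in 1 of 1 peak for HCT116, 2 of 3 for A549 and 3 of 4 for H460, beside 35.9%, 42.8% and 14.9% of all normoxia peaks in those lists. A match is a description of the letters and not evidence of binding at that base.

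Cores of 4 other sites near a start or in more than 1 line, chosen after their values were seen, are shown with their flanks because they differ in the base before CGTG. The SLC2A1 stretches lie at chr1:43428461-43428489 and chr1:43406857-43406885, both on the minus strand, and the core nearest to the peak centre is in capitals.
SLC2A1 -3.9 kb: ccccacccacttGCGTGctctgaggcaca
SLC2A1 +17.6 kb: tgcccagggcagACGTGatcagacttgca
SLC16A3 -0.06 kb: cgtgcgcgggggACGTGccgcgccagcga
BSG -0.09 kb: gagcgtgtgcgcGCGTGcgcaggcggggc

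The SLC16A3 and BSG stretches lie at chr17:80186851-80186879 and chr19:572462-572490, both on the plus strand. With ACGTG alone as the motif, 25 of the 35 hypoxia peaks held a match, and the SLC2A1 upstream site and the BSG promoter site were among those that hold GCGTG only. No share of all hypoxia peaks with ACGTG alone stands beside this count. It therefore describes the peaks of the gene windows and does not place them above or below their lists.

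**Figure D4:**
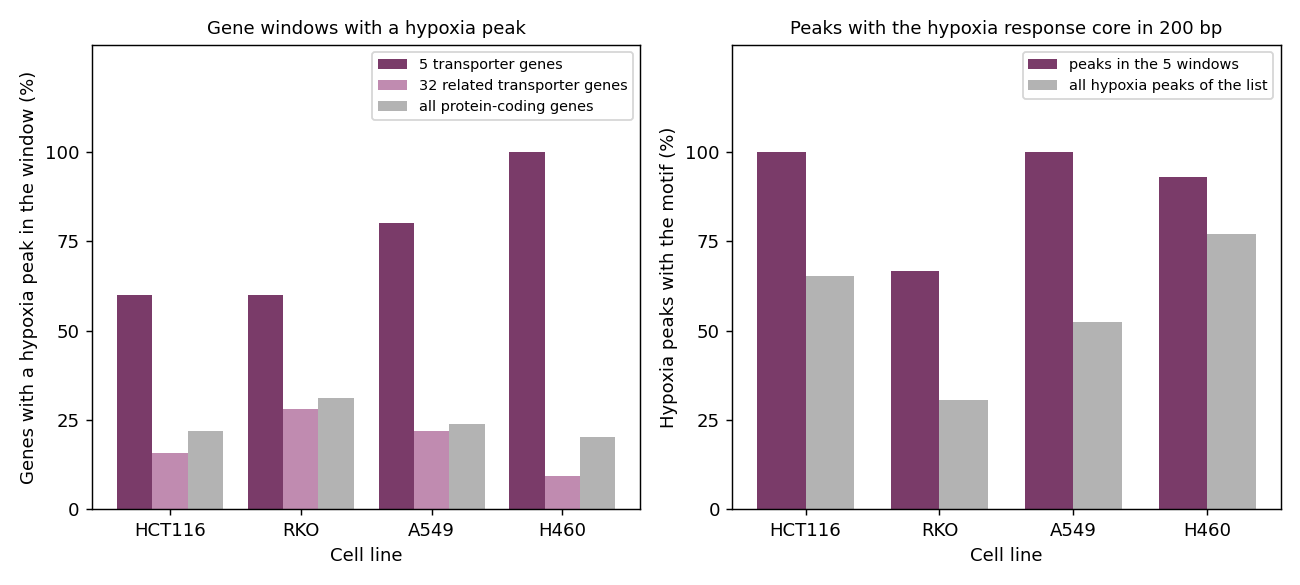
Left, percent of genes with a hypoxia peak in the window for the 5 transporter genes, 32 related transporter genes and all 20162 protein-coding genes, by line. Right, percent of hypoxia peaks with RCGTG in the 200 bp at the peak centre, for peaks in the 5 windows and for the whole list. The 5 genes stand above both other groups in each line, while the related genes lie below all protein-coding genes in each line in this window, though not in RKO and A549 within 50 kb.

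The remaining members of these carrier families were examined as a list of 32 related genes (the other facilitative hexose transporters, sodium-glucose and sodium-monocarboxylate cotransporters, the other SLC16 carriers, the basigin relatives EMB and NPTN, and the mitochondrial pyruvate carrier). In hypoxia 9 of 32 had a peak in the window in RKO, 7 in A549, 5 in HCT116 and 3 in H460, which is 28.1%, 21.9%, 15.6% and 9.38%. These shares were below the 31.1%, 23.8%, 22% and 20.3% of all protein-coding genes. In normoxia the counts were 1, 1, 0 and 1. The order depended on the window. Within 50 kb of the gene the related list had 53.1% in RKO and 40.6% in A549, above the 47.5% and 37.6% of all protein-coding genes, and 31.2% in HCT116 and 28.1% in H460, below their 34.9% and 32.2%. In that wider window 3 of the 5 transporter genes were called in RKO, 4 in A549, 4 in HCT116 and 5 in H460. The difference between the 2 lists was not tested.

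Of these 32 relatives, 6 had a peak in at least 2 hypoxia lists, and several of those peaks lay at the start of another gene. Among all protein-coding genes, 15.0% were called in exactly 2 hypoxia lists, 7.47% in 3 and 3.87% in all 4. SLC2A11 was called in all 4 lines (14.7, 8.37, 17.4 and 38 tags per 10 M in HCT116, RKO, A549 and H460), with the peak centre 6 to 33 bp from the start of MIF, which encodes a cytokine. SLC16A4 was called in all 4 lines as well (6.38, 4.78, 7.52 and 13.5), 262 to 307 bp from the start of LAMTOR5, and H460 had a second peak of 5.86 at 1636 bp from a start of SLC16A4 itself. SLC2A4, the insulin-regulated GLUT4, had 3.68 in HCT116, 4.04 in RKO and 9.45 in A549, 1779 to 1812 bp from the start of YBX2. SLC16A10, an aromatic amino acid carrier, had a peak 67 bp and 76 bp from its own start with 9.32 in HCT116 and 8.52 in RKO. SLC2A13 and SLC16A12 were each called in 2 lines with peaks 65638 to 111420 bp from the nearest of their starts and of at most 5.46 tags per 10 M.

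Finally, the protein-coding genes whose summed window signal was closest to each transporter gene were named by Euclidean distance over the 8 lists on the log2(1 + sum) scale, leaving out genes whose windows share a peak with the transporter gene (CCDC57 and CSNK1D for SLC16A3, FOXJ2 for SLC2A3, GZMM and HCN2 for BSG). For SLC16A3 (75.8, 61.9, 208.5 and 135.7 tags per 10 M in hypoxia in HCT116, RKO, A549 and H460) they were DDIT4 (distance 1.41), ENO1 (2.88) and KDM3A (3.43). DDIT4, which encodes an inhibitor of mTORC1 signaling, had 48.7, 37.8, 125.7 and 133.7. For SLC2A3 (33.5, 0, 86.6 and 96.7) they were BNIP3 (2.10), SLC8A3 (2.12) and ACSM6 (2.85), and BNIP3, a mitophagy receptor, likewise had no peak in RKO. For SLC2A1 (21.0, 22.7, 35.2 and 68.8) they were AK4 (0.80), RASSF7 (1.40) and XXYLT1 (1.45), where AK4 encodes a mitochondrial adenylate kinase and had 35.2, 18.7, 34.4 and 67.1. The nearest genes of SLC16A1 were HMCN2, RHPN1 and KIF16B, and those of BSG were NONO, IFIT2 and ZMYM3, which share with them mostly the lists in which no peak was called.

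Just outside the windows, 6 hypoxia peaks lay within 30 kb of a window edge. The strongest, of 30.1 tags per 10 M in HCT116, was 28774 bp beyond the upstream edge of the SLC2A1 window, and the nearest, of 5.15 in A549, was 10963 bp beyond the downstream edge of the SLC16A3 window. They entered no count above.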

How the data were processed

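HIF1A ChIP-seq of 16 ChIP and 4 input libraries was analyzed as 8 deposited peak lists. The authors aligned reads to GRCh37 with Bowtie2 (2.2.9), kept alignments with a mapping quality above 10, marked duplicates, pooled both replicates per group and ran HOMER (4.3) peak calling against the line's input, with a local fold of 3 and a false discovery rate of 0.001. Per the file headers, the deposited signal column is the tag count scaled to 10 M tags, and the deposited ratio columns give the fold over input and over the surrounding 10000 bp. This scaling corrects for depth and leaves differences in immunoprecipitation efficiency and peak width between lists. A minimum mapping quality removes reads from near-identical copies.

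Windows and positions came from GENCODE release 44 mapped to GRCh37. Unscaled tags were the signal times the header total, rounded, and their sum equalled the header value in all 8 lists. Peaks were joined where they overlapped by at least 1 bp. For each peak shared by both lists of a line, unscaled tags were compared by an exact binomial test conditional on their sum, with the expectation from the library totals and Benjamini-Hochberg adjustment over all shared peaks of that line. The 4 lines were compared with an exact sign-flip permutation test, two-sided. Scripts used Python 3.11.15, pandas 2.3.3, scipy 1.17.1, pysam 0.24.0 and blastn 2.17.0, and the tag test was checked on simulated data. Groups followed the sample titles. The descriptions of the RKO and A549 inputs name each other's line, and the source name is HCT116 for every input. The 5 genes, the related list and the named genes (all peaks of the 5, relatives called in at least 2 hypoxia lists, and the 3 nearest genes by window signal) were chosen with earlier results of these data known. Alternatives covered the window, thresholds, scaling, motif and the lines included. Files of single samples were not used here.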

Additional observations from a re-analysis of the deposited data

Results flagged for a closer look

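At the SLC16A3 intron site the fold over input was 698.74 in H460, against 29.8 in HCT116, 104.4 in RKO and 62.2 in A549, and H460 stood farther from the other 3 lines than Dixon's 95% critical value for 4 values allows. No input tag was found at this site in H460, where the input column holds 0.5, so the ratio rests on a placeholder. The normalized tag count and the local fold of the same peak did not stand apart. This was 1 of 11 sets of 4 lines examined, and chance alone sets a value apart in about 1 of 20.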

How the results depend on the processing

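The rise in the number of peaks from normoxia to hypoxia kept its direction under every alternative run, between 3.25 peaks (within 2500 bp of any transcript start) and 9 (within 50 kb of the gene), and between 5.67 and 7.67 when 1 line was left out, where the smallest p is 0.25. With windows set from the MANE Select transcript, an alternative chosen after seeing the data, it was 5.25, and SLC2A3 was then called in H460 only, since its sites in HCT116 and A549 lie outside that window. The transporter genes called in A549 fell to 2 within 2500 bp of a transcript start. The related genes called in HCT116, RKO, A549 and H460 were 2, 2, 1 and 1 within 2500 bp and 10, 17, 13 and 9 within 50 kb, and in HCT116 they were 2 at a fold over input of at least 14 and 3 at a local fold of at least 6.

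The 3 hypoxia ratios at peaks called in both conditions kept their direction and call per bp of width and with a stricter overlap. Differences between lines, as log2 ratios of the highest over the lowest line as deposited, depended on scaling. H460 over HCT116 at SLC2A1 +0.56 kb was 0.74, and reversed to -0.34 relative to list medians and -0.46 relative to common peaks. A549 over RKO at SLC2A1 +17.6 kb moved from 1.35 to 0.12 relative to common peaks. H460 over A549 moved relative to list medians from 0.85 to 0.11 at SLC2A1 -3.9 kb and from 1.61 to 0.87 at BSG -16.5 kb. A549 over HCT116 moved at SLC2A3 -34.6 kb from 1.52 to 1.18 and 0.55 relative to list medians and common peaks, and at SLC2A3 -46.3 kb from 1.44 to 0.48 relative to common peaks. A549 over RKO at SLC16A3 +2.1 kb moved from 1.91 to 2.10 per width, 1.68 relative to list medians and 0.68 relative to common peaks. RCGTG was found in 91.4% of the hypoxia peaks in the gene windows, in 77.1% with 100 bp at the centre and in 71.4% with ACGTG alone. The shares for 100 bp and for ACGTG alone were not set beside those of all hypoxia peaks, so they describe the window peaks only. No paired analysis was possible because the peak lists analysed here were called on merged replicates, so neither could a replicate be left out of them; conditions were paired by line. Depth limits weak peaks, which held as few as 14 tags.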
